A study of Mus musculus with 6 samples.

Results

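The angiopoietin and vascular endothelial growth factor (VEGF) systems were described in mouse hearts through 10 genes, Angpt1, Angpt2, Tek, Tie1, Vegfa, Vegfb, Vegfc, Kdr, Flt1 and Flt4, of 18193 genes that the array measured with an unambiguous symbol. They were read by 19 of the 45037 non-control probe sets (a probe set is a group of short probes that reads a transcript), namely every probe set annotated to only 1 of these genes. The probe set annotated as Ang2 belongs to an angiogenin-family gene by its gene identifier, not to Angpt2, and was left out. The genes were chosen by symbol after the low Angpt1 signal of DNMTs-Tg hearts on these same 6 arrays was known. Their differences between genotypes are therefore given as a description, with standard errors and without a test.

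Whole hearts of 3 DNMTs-Tg mice (replicates 1, 5 and 6) were compared with those of 3 wild-type mice (replicates 1, 4 and 6), all 8 weeks old, with 1 Affymetrix array per heart. DNMTs-Tg mice express transgenes for the de novo DNA methyltransferase isoform DNMT3A2 and its cofactor DNMT3L in a broad range of somatic cells. Per the labels, they came from females of the line FVB-Tg(Ddx4-cre)1Dcas/J, in which the germ-cell promoter of Ddx4 drives Cre, crossed to a floxed male. The study asked which genes were silenced in the heart by the methyltransferases. DNA methylation itself was not analysed here.

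Angiopoietins are secreted ligands of the endothelial receptor tyrosine kinase Tie2, which Tek encodes. Angiopoietin 1, made mainly by pericytes, smooth muscle and other mesenchymal cells and in the heart also by cardiomyocytes, activates Tie2 and keeps vessels stable, whereas angiopoietin 2, stored and released by endothelial cells, acts in many settings as its antagonist. Tie1 is a related receptor that modulates Tie2. VEGF-A, the main driver of vessel growth, signals through VEGFR2 (Kdr), while VEGFR1 (Flt1) also acts as a decoy for it. VEGF-B binds VEGFR1 and is abundant in heart muscle, and VEGF-C acts through VEGFR3 (Flt4) on lymphatic vessels.

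Because the study concerned DNA methylation, which in mammals falls mostly on CpG dinucleotides, the CpG content around the start sites is shown first. RefSeq windows of 300 bases (GRCm38.p6, 250 bases before to 50 after a start site) were matched for 8 of the 10 genes, all but Angpt1 and Angpt2. Below are those of Vegfb and of Tek, 5′ to 3′ on the gene's strand, with each CpG in capitals. Vegfb is shown as a ligand gene whose signals did not overlap between the genotypes, and Tek as the receptor gene of angiopoietin 1, whose signals overlapped.
Vegfb, chr19:6987602-6987901, minus strand: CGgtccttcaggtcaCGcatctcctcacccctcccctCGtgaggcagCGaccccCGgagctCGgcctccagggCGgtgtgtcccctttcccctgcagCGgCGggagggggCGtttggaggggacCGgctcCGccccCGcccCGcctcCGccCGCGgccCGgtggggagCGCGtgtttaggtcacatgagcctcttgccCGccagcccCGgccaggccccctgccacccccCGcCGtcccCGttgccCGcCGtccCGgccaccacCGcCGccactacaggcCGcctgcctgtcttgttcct
Tek, chr4:94739039-94739338, plus strand: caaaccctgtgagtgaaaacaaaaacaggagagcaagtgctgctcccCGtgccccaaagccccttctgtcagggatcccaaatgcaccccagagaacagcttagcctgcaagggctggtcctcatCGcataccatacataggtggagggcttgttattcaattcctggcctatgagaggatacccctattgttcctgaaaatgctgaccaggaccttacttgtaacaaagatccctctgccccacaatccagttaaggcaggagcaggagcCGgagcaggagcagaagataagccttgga

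The Vegfb window held 31 CpG, more than 89.4% of all 32851 windows in the table, and the Tek window held 3, more than 23.3% of them. Tie1 had 7 CpG, the 2 start sites of Vegfa 16 and 10, Kdr 19, Flt4 26, Flt1 29 and Vegfc 35. Of the genes with a window, only Vegfb had signals that did not overlap between the genotypes, and those of Flt4, Flt1 and Vegfc overlapped. Whether CpG content bears on the differences was not tested. A CpG count of 10 or more was found in 7 of the 9 member windows and in 43.5% of all windows. The letters ACGTG, 1 form of the core bound by hypoxia-inducible factors, were searched on both strands. They occurred in 1 of the 9 windows, a start site of Vegfa, and in 19.6% of all windows. The form GCGTG was not counted, so a window without ACGTG may still hold the core. No measurement here says whether any of these cytosines was methylated.

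Median log2 signals of the arrays lay between 5.28 and 5.33. The transgene Dnmt3l, the check of the genotype labels, had log2 signals of 12.30, 12.38 and 12.19 in DNMTs-Tg hearts, against 5.28, 5.48 and 5.17 in wild-type hearts. RNA of the Y chromosome and of Xist went against the labelled sex on 4 arrays: wild-type replicate 4 alone had high Xist (10.10, against 4.52 to 4.96 on the others) and low Eif2s3y (3.32, against 9.41 to 9.52), although only wild-type replicate 6 was labelled male. Values without wild-type replicate 4 therefore compare arrays of male type alone, and are given below where they bear on a result. DNMTs-Tg replicate 1 stood apart by high macrophage and fibroblast markers. RNA integrity was read from control probe sets at both ends of a transcript. For Gapdh the 3′ end exceeded the 5′ end by 0.66 ± 0.12 in DNMTs-Tg hearts and 0.43 ± 0.06 in wild-type hearts (log2, SD, n = 3 each, exact permutation test, 2-sided p = 0.1, the smallest that 3 against 3 arrays allow). For Actb the excess was 1.12 ± 0.25 in DNMTs-Tg hearts and 1.15 ± 0.09 in wild-type hearts (SD, n = 3 each, exact permutation p = 0.8). The part of RNA integrity in the results below was not tested.

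Of the 10 genes, Angpt1 differed most. Its first probe set (1439066_at) had log2 signals of 6.42, 6.53 and 7.95 in DNMTs-Tg replicates 1, 5 and 6, against 9.91, 9.59 and 9.68 in wild-type replicates 1, 4 and 6. Every DNMTs-Tg heart lay below every wild-type heart, with a gap of 1.64 between the groups. Replicate 6 was the highest of the DNMTs-Tg hearts, and the spread was wider among DNMTs-Tg hearts (SD 0.85) than among wild-type hearts (SD 0.17, n = 3 each). The mean difference was -2.76 ± 0.37 (log2, SE), a signal 6.76-fold lower in DNMTs-Tg hearts. Among the 13634 genes tested it was the fall of rank 11 by size.

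The second Angpt1 probe set (1421441_at) showed the same order of the groups. It had 4.69, 4.71 and 5.01 in DNMTs-Tg hearts, against 6.13, 5.68 and 5.97 in wild-type hearts, a difference of -1.13 ± 0.16 (log2, SE). The DNMTs-Tg values of this probe set lay close to the 40th percentile of their arrays (4.64, 4.70 and 4.72), the level used here to filter dim probe sets, so no fold is given. Both probe sets placed DNMTs-Tg replicate 6 above replicates 1 and 5. With any 1 array left out the difference was -3.25 to -2.48 for the first and -1.25 to -1.02 for the second probe set. Without wild-type replicate 4 the differences were -2.83 and -1.25, and without DNMTs-Tg replicate 1 they were -2.48 and -1.07. In whole hearts, fewer cells that express a gene and less RNA per cell cannot be told apart.

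**Figure D1:**
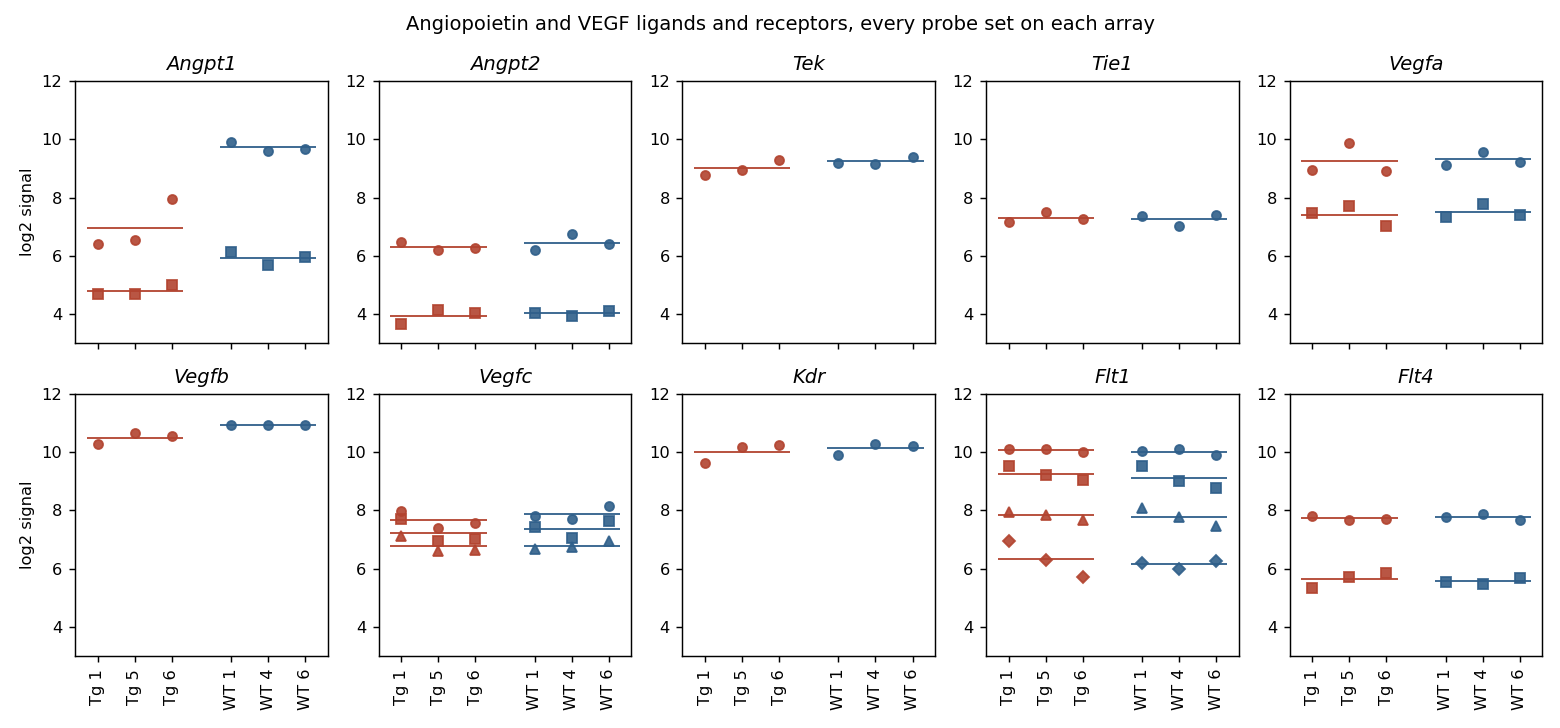
Log2 signal of each of the 19 probe sets (a symbol each) on the arrays of DNMTs-Tg (Tg, red, left) and wild-type (WT, blue, right) hearts, with group means as lines (n = 3 each). Both Angpt1 probe sets and that of Vegfb lie lower on every DNMTs-Tg array, and the others overlap.

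The other angiopoietin and both Tie receptors had overlapping groups. Angpt2, the context-dependent antagonist, had 6.49, 6.19 and 6.28 in DNMTs-Tg hearts, against 6.19, 6.75 and 6.41 in wild-type hearts by its first probe set (1448831_at). Its difference of -0.13 ± 0.17 (log2, SE) turned to 0.02 without wild-type replicate 4. The second Angpt2 probe set (1459636_at) was at 3.66 to 4.15 in DNMTs-Tg and 3.95 to 4.10 in wild-type hearts. It lay below the 40th percentile on every array and was the only one of the 19 that did not pass the filter on dim values.

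Tek, the receptor gene of both angiopoietins, had 8.76, 8.96 and 9.28 in DNMTs-Tg hearts, against 9.20, 9.14 and 9.39 in wild-type hearts. Only DNMTs-Tg replicate 6 reached the wild-type range. The Tek difference was -0.24 ± 0.16 (log2, SE), with -0.12 when DNMTs-Tg replicate 1 was left out and -0.38 when replicate 6 was. Tie1, the modulating receptor, had 7.17, 7.50 and 7.27 in DNMTs-Tg hearts, against 7.38, 7.01 and 7.42 in wild-type hearts. The Tie1 groups lay within each other, and the difference was 0.04 ± 0.16 (SE), or -0.09 without wild-type replicate 4. Neither the receptor genes nor Angpt2 had a difference of the size seen for Angpt1.

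Among the VEGF ligands, Vegfb stood lower in every DNMTs-Tg heart. It had 10.27, 10.64 and 10.56 in DNMTs-Tg hearts, against 10.93, 10.91 and 10.91 in wild-type hearts. The wild-type values were almost identical (SD 0.01), and the gap between the groups was 0.27. The difference was -0.42 ± 0.12 (log2, SE), a 1.34-fold lower signal, and it ranged from -0.50 without DNMTs-Tg replicate 5 to -0.31 without DNMTs-Tg replicate 1. Leaving out an array cannot make groups that are apart overlap, so only the size of the Vegfb difference was followed.

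Vegfa varied more between hearts of a genotype than between the genotypes. Its first probe set (1420909_at) had 8.96, 9.89 and 8.91 in DNMTs-Tg hearts, against 9.12, 9.58 and 9.23 in wild-type hearts. Replicate 5 was the highest of the DNMTs-Tg hearts and replicate 4 of the wild-type hearts, and the second probe set (1451959_a_at), at 7.49, 7.72 and 7.02 against 7.35, 7.78 and 7.40, placed the same hearts highest. The differences were -0.05 ± 0.26 and -0.10 ± 0.20 (log2, SE). The sign of the first depended on the hearts included, from -0.37 without DNMTs-Tg replicate 5 to 0.12 without DNMTs-Tg replicate 6.

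Vegfc, the lymphatic ligand, was read by 3 probe sets with differences of -0.24 ± 0.19, -0.13 ± 0.23 and 0.00 ± 0.17 (log2, SE). The first (1440739_at) had 7.99, 7.38 and 7.58 in DNMTs-Tg hearts, against 7.81, 7.71 and 8.14 in wild-type hearts. All 3 placed DNMTs-Tg replicate 1 highest among the DNMTs-Tg hearts, and without that heart the differences were -0.41, -0.37 and -0.17. Over all arrays the groups of all 3 overlapped. Leaving out the highest DNMTs-Tg heart favours a gap between the groups, so none is counted for that case. The second probe set carries the suffix for probes shared with other transcripts (1439766_x_at), so its signal may include that of related sequences.

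The VEGF receptor genes overlapped between the genotypes on all of their probe sets. Kdr, which encodes the main signalling receptor of endothelium, had 9.61, 10.17 and 10.23 in DNMTs-Tg hearts, against 9.88, 10.27 and 10.21 in wild-type hearts. Replicate 1 was the lowest of each group, and the difference was -0.11 ± 0.19 (log2, SE), or 0.08 without DNMTs-Tg replicate 1. Flt1 was read by 4 probe sets, all with a small positive difference of 0.05 ± 0.11 to 0.18 ± 0.28 (SE). The first (1419300_at) had 10.11, 10.10 and 9.99 in DNMTs-Tg hearts, against 10.03, 10.10 and 9.91 in wild-type hearts. The last (1454037_a_at) spread most among DNMTs-Tg hearts, with 6.95, 6.31 and 5.70 in DNMTs-Tg hearts, against 6.18, 6.00 and 6.26 in wild-type hearts, and its difference turned to -0.14 without DNMTs-Tg replicate 1. Which of the Flt1 probe sets read the soluble decoy form is not known here.

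Flt4, the lymphatic receptor gene, had 7.80, 7.65 and 7.71 in DNMTs-Tg hearts, against 7.78, 7.89 and 7.67 in wild-type hearts by its first probe set (1444052_at). The Flt4 differences were -0.06 ± 0.12 and, by the second probe set (1421442_at), 0.07 ± 0.16 (log2, SE). Both were smaller than their standard errors.

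**Figure D2:**
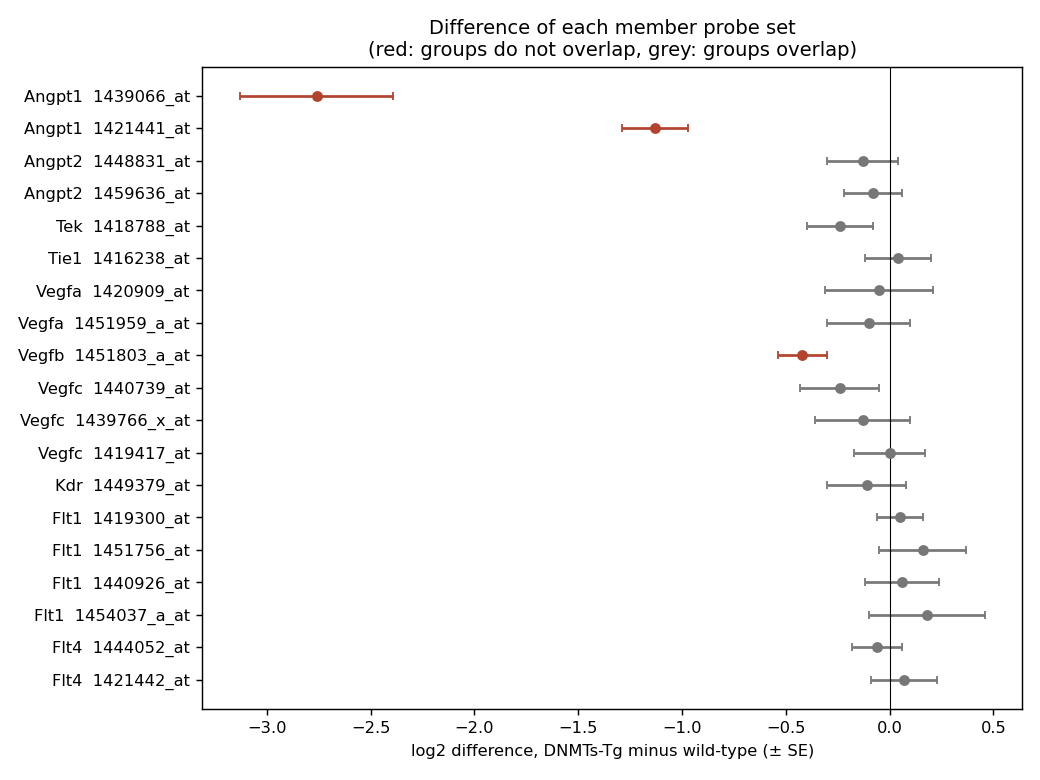
Log2 difference of each member probe set, DNMTs-Tg minus wild-type, with its standard error (n = 3 each, limma fit over all probe sets). The 3 red points, both of Angpt1 and that of Vegfb, have groups that do not overlap, while the grey ones lie between -0.24 and 0.18.

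In all, the groups of 3 of the 19 probe sets did not overlap, all 3 lower in DNMTs-Tg. Over all 45037 probe sets 14.9% were apart and lower and 11.7% apart and higher. The median difference of the 19 probe sets was -0.08, against -0.025 over all probe sets, and 13 lay below 0. Since the set was proposed from the same contrast, nothing is read from these counts. Among the 16 probe sets whose groups overlapped, the largest absolute difference was 0.24 (log2).

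Pearson's r over the 6 arrays was used to find the genes whose pattern was most like that of the first Angpt1 probe set. Members, Y-linked genes, Xist, Tsix and symbols in the form of clone or predicted-gene names were left out. Among the other tested genes, r was highest for Synpo2, which encodes an actin-binding protein of muscle (r = 0.999), and Kdm1b, a histone demethylase gene (r = 0.996). They were followed by Lclat1, an acyltransferase gene of cardiolipin and phosphoinositide remodelling (r = 0.996), the nuclear factor I gene Nfib (r = 0.996) and Ccdc90b (r = 0.995). Angpt1 has a step between the genotypes, with replicate 6 as the DNMTs-Tg heart nearest to wild-type. Each of these genes had the same features, which follows from choosing them by r. Synpo2, for example, had 8.48, 8.55 and 9.29 in DNMTs-Tg hearts, against 10.46, 10.34 and 10.26 in wild-type hearts. Its 4 kept probe sets differed from -1.58 to 0.84 (log2), so the likeness holds for this probe set and not for the gene as a whole.

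The cell types that make and receive these ligands were followed through marker genes. The 17 measured endothelial markers had mean log2 levels, relative to the wild-type mean, of 0.09, -0.03 and 0.29 in DNMTs-Tg hearts, against -0.02, -0.10 and 0.11 in wild-type hearts. The difference was 0.12 (exact permutation test, 2-sided p = 0.5, with 0.1 the smallest possible), and so few arrays limit this test. Of the 17 markers 0 passed limma's threshold, with 3 at an unadjusted p under 0.05, a level that 26.0% of all tested genes reached. Pecam1, the adhesion molecule of endothelium, differed by 0.07 (limma, adjusted p = 0.747). Pericyte and smooth muscle markers, of the cells that supply angiopoietin 1 to vessels, stood at -0.09, -0.22 and -0.05 in DNMTs-Tg hearts, against 0.14, -0.23 and 0.09 in wild-type hearts. The pericyte marker Rgs5 differed by -0.05 (adjusted p = 0.788), or 0.02 without DNMTs-Tg replicate 1. Its 4 kept probe sets ran from -0.30 to -0.05. The 10 genes of the list ranged from -0.73 to 0.47. The range of these means overlapped between the genotypes. Within the list, the groups of the smooth muscle myosin gene Myh11 (-0.49, adjusted p = 0.0900) and the receptor gene Pdgfrb (0.47, adjusted p = 0.147) did not overlap, in opposite directions.

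Lymphatic markers stood at 0.44, 0.12 and 0.04 in DNMTs-Tg hearts, against -0.05, 0.11 and -0.06 in wild-type hearts. Lyve1, the hyaluronan receptor of lymphatic endothelium, differed by -0.52 (limma, adjusted p = 0.387). With 1 array left out, Lyve1 passed only without DNMTs-Tg replicate 1, its highest DNMTs-Tg heart (-0.93, adjusted p = 0.0396, otherwise up to 0.682). Of the other lymphatic markers Prox1 lay below 0 (-0.30), while Reln (0.87, adjusted p = 0.0505), Pdpn (0.78, adjusted p = 0.205) and Mmrn1 (0.18) lay above it. The groups of Reln and Pdpn did not overlap. Fibroblast markers stood at 1.04, 0.21 and 0.09 in DNMTs-Tg hearts, against -0.12, -0.06 and 0.19 in wild-type hearts. The receptor gene Pdgfra differed by 0.36 (adjusted p = 0.288), or 0.13 without DNMTs-Tg replicate 1. Its 2 kept probe sets read 0.36 and 0.77. Macrophage markers reached 1.49 in DNMTs-Tg replicate 1 and stood at -0.02 and 0.06 in replicates 5 and 6, against 0.04, -0.13 and 0.10 in wild-type hearts, with Cd68 at 0.32 (adjusted p = 0.668). Without DNMTs-Tg replicate 1 Cd68 turned to -0.20. 

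Cardiomyocytes, a source of angiopoietin 1 in the heart, had marker means of -0.22, -0.03 and -0.05 in DNMTs-Tg hearts, against -0.01, -0.01 and 0.02 in wild-type hearts. Every DNMTs-Tg mean lay below every wild-type mean, but that of replicate 5 only narrowly (-0.03 against -0.01). The lowest was that of DNMTs-Tg replicate 1, the array with high macrophage and fibroblast markers. Several of these markers, such as Myh6 at 14.13 to 14.62, lay near the highest signal of the data (14.74). Whether differences are compressed at that level was not tested. Of the 11 cardiomyocyte markers 1 fell, the transcription factor gene Nkx2-5 (-0.59, adjusted p = 0.0471), a call that ended with any 1 array left out (adjusted p = 0.0522 to 0.164). The groups of 8 of the 11 did not overlap, against 34.9% of all tested genes, and 4 had an unadjusted p under 0.05. Their differences had both signs: the myosin gene Myh6 differed by -0.18 (adjusted p = 0.363) and the actin gene Actc1 by -0.18 (adjusted p = 0.180), but the sarcomere genes Actn2 by 0.41 (adjusted p = 0.0568) and Mybpc3 by 0.34 (adjusted p = 0.0606). The part of these cell types in the Angpt1 and Vegfb differences was not tested.

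**Figure D3:**
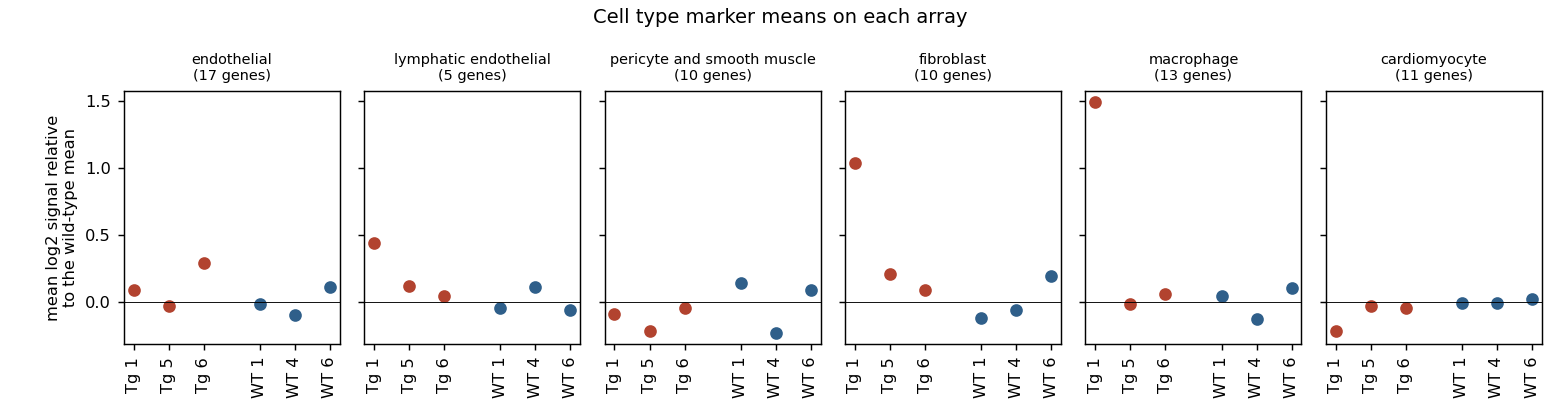
Mean log2 signal of the measured markers of 6 cell types on each array, relative to the wild-type mean (DNMTs-Tg red, left, and wild-type blue, right). Endothelial and pericyte means overlap between the groups, and DNMTs-Tg replicate 1 stands apart at 1.49 for macrophage and 1.04 for fibroblast markers.

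Around the 10 genes, 5 lists of further pathway genes were tested in a limma fit over all 13634 genes (Benjamini-Hochberg adjusted p under 0.05), which called 5.39% of them, 2.24% as higher and 3.15% as lower in DNMTs-Tg hearts. Of the 97 list genes tested, 2 rose, 2 fell and 93 did not pass, and their median log2 difference was 0.09, against 0.0055 over all genes. All 4 belong to the signalling genes downstream of Tie2 and the VEGF receptors, of which 24 were tested.

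Akt1, the kinase that carries survival signals of both receptor families, had 10.40, 10.56 and 10.41 in DNMTs-Tg hearts, against 9.70, 9.70 and 9.72 in wild-type hearts. It rose by 0.75 ± 0.09 (log2, SE, limma, adjusted p = 0.00837). Its 4 kept probe sets ran from -0.07 to 0.75, and their mean did not pass (0.25, adjusted p = 0.165). Ptpn11, the phosphatase gene also called Shp2, had 11.89, 11.89 and 11.66 in DNMTs-Tg hearts, against 11.23, 11.16 and 11.16 in wild-type hearts, and rose by 0.63 ± 0.10 (adjusted p = 0.0178). All 3 of its kept probe sets lay above 0. Grb14, an adaptor gene that binds Tie2 and is best known as an inhibitor of insulin receptor signalling, had 9.44, 10.21 and 10.85 in DNMTs-Tg hearts, against 11.93, 11.75 and 11.91 in wild-type hearts. It fell by 1.70 on the log2 scale (SE 0.32, adjusted p = 0.0305). The adaptor gene Grb2, which links receptors to Ras, had 8.86, 8.64 and 8.99 in DNMTs-Tg hearts, against 9.35, 9.47 and 9.50 in wild-type hearts, and fell by 0.61 (adjusted p = 0.0372).

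These genes act in many cell types of the heart, and their signals here are of whole tissue. The calls depended on the number and choice of arrays, as did the number of calls over all genes. With any 1 array left out the differences ran from 0.60 to 0.71 for Ptpn11 and from -2.04 to -1.33 for Grb14. They ran from -0.69 to -0.51 for Grb2 and from 0.70 to 0.78 for Akt1. Whether single hearts or the smaller number of arrays ended the calls was not tested. Ptpn11, Grb14 and Grb2 lost theirs without DNMTs-Tg replicate 5 (adjusted p = 0.0798, 0.108 and 0.108) and without wild-type replicate 1 (0.0873, 0.127 and 0.123), 4 (0.0878, 0.104 and 0.146) or 6 (0.0815, 0.115 and 0.141). Akt1 lost its call without wild-type replicate 1 (adjusted p = 0.0592) or 4 (0.0527). Grb2 also lost it with the mean of its 2 probe sets (-0.46, adjusted p = 0.0565).

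**Figure D4:**
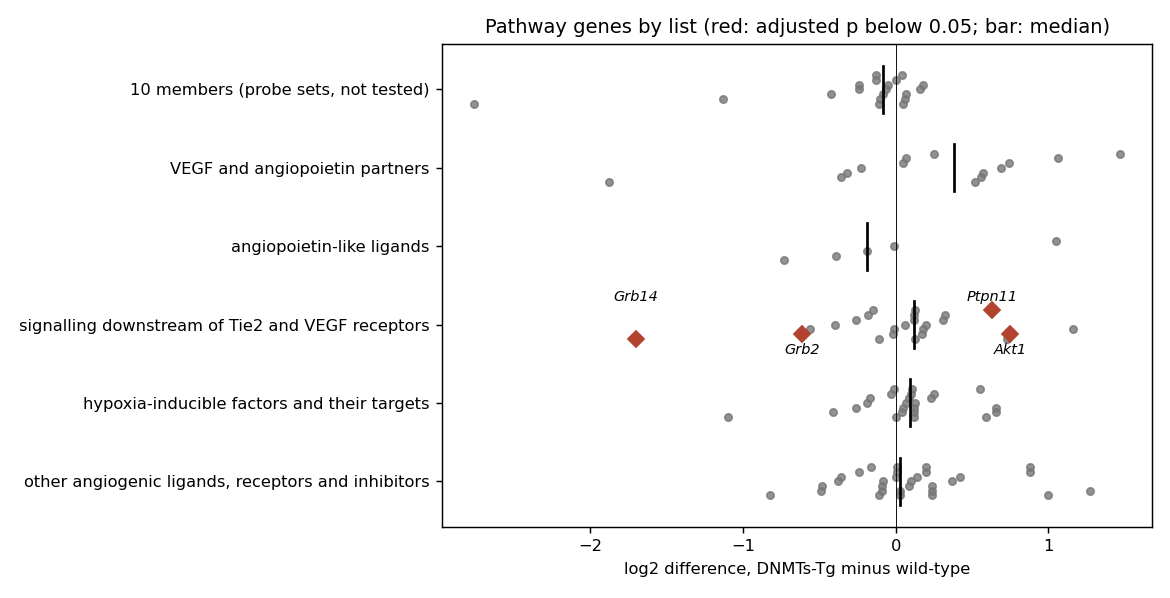
Log2 difference, DNMTs-Tg minus wild-type, of the 19 member probe sets (top, not tested) and of the tested genes of 5 pathway lists, with the median of each as a bar. Red diamonds are the 4 genes past the threshold, Grb14, Grb2, Ptpn11 and Akt1, all in the list of downstream signalling.

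In the other 4 lists 0 genes passed limma's threshold, with 5 partners, 2 angiopoietin-like genes, 3 hypoxia genes and 7 further angiogenic genes at an unadjusted p under 0.05. Over all 97 list genes 23 reached that level, against 26.0% of all tested genes. Among 14 partners of the ligands and receptors, which include the co-receptors neuropilin 1 and 2 and the phosphatase that acts on Tie2, the median difference was 0.38. The smallest p belonged to Ccbe1, a factor needed to process VEGF-C, which had 5.05, 5.49 and 6.30 in DNMTs-Tg hearts, against 8.40, 7.38 and 6.67 in wild-type hearts (-1.88 ± 0.48, log2, SE, adjusted p = 0.0683). The integrin subunit gene Itgav was next (0.74, adjusted p = 0.0787). With 1 array left out, Ccbe1 passed only without DNMTs-Tg replicate 6 (adjusted p = 0.0363, otherwise up to 0.184). Itgav passed only without DNMTs-Tg replicate 6 (0.0247) or 1 (0.0480), with up to 0.228 otherwise. Replicate 6 was the DNMTs-Tg heart nearest to wild-type for both genes, so leaving it out favours a call. Of 5 angiopoietin-like genes tested, Angptl6 differed by -0.73 (adjusted p = 0.0724) and Angptl7 by -0.39 (adjusted p = 0.161). With 1 array left out, Angptl6 passed only without DNMTs-Tg replicate 6, again the nearest to wild-type (adjusted p = 0.0389, otherwise up to 0.228).

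The hypoxia list holds factors that induce Vegfa and Angpt2 when oxygen is low, such as Hif1a and Epas1, and other targets of these factors. It also holds genes that restrain them, such as Vhl and Egln1. The 24 genes of the list, which thus have opposite roles, had a median of 0.09 and ranged from -1.10 to 0.66. Egln3, a prolyl hydroxylase that is itself a hypoxia target, had 9.82, 8.81 and 9.01 in DNMTs-Tg hearts, against 10.23, 10.41 and 10.29 in wild-type hearts (-1.10, adjusted p = 0.0523). The groups did not overlap. With 1 array left out, Egln3 passed only without DNMTs-Tg replicate 1, its DNMTs-Tg heart nearest to wild-type (-1.40, adjusted p = 0.00178). It also passed with the mean of its 2 probe sets (-1.16, adjusted p = 0.0370). Over all alternatives its adjusted p ran from 0.000205 to 0.397. Adrenomedullin (Adm), a vasodilator peptide gene induced by hypoxia, differed the other way, by 0.66 (adjusted p = 0.102). Among 30 further angiogenic ligands, receptors and inhibitors the median was 0.03, and the smallest p values were those of the hepatocyte growth factor receptor gene Met (0.88, adjusted p = 0.112) and the guidance ligand gene Sema3a (-0.36, adjusted p = 0.124). With 1 array left out, Met passed only without DNMTs-Tg replicate 6, its DNMTs-Tg heart nearest to wild-type (1.14, adjusted p = 0.0297, otherwise up to 0.287).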

How the data were processed

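The authors deposited log2 signals of an Affymetrix GeneChip, made from heart RNA that was, per the labels' protocols, reverse-transcribed in a single cycle and labelled with biotin by in vitro transcription. The log2 scale was inferred from the values (2.06 to 14.74), with background correction, summary and normalization not given in the sources used here.

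Values were analysed as deposited. Symbols came from the platform annotation (34945 of 45037 non-control probe sets had 1 gene, 932 several, 9160 none) and were updated by gene identifier to GRCm38.p6 names, which matched 34741. The filter for tested genes asked for a signal above the array's 40th percentile on 3 or more arrays (27319 probe sets passed), and the brightest kept probe set stood for each of 13634 genes. limma 3.58.1 in R 4.3.3 (lmFit, eBayes with trend, 2-sided, Benjamini-Hochberg over all genes) gave every adjusted p. Member differences and their SE came from the same model over all probe sets, unfiltered. The model was tested on simulated data.

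Named were all members, Dnmt3l, and up to 6 called genes of each list or else the 2 with the smallest p. So were the first and any called marker of each cell type, and the 5 genes most correlated with Angpt1 after the exclusions above. The members and lists were chosen with earlier results of these data known. The number of arrays limits the precision. The fits were repeated with each array left out, a replicate block, array weights, other variance models, averaged probe sets, other filters, a common median and quantile normalization.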

Additional observations from a re-analysis of the deposited data

How the results depend on the processing

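The differences of both Angpt1 probe sets and of Vegfb kept their sign and moved by less than the spread between replicates under each alternative run for them: quantile normalization, a common median, array weights, a replicate block and each array left out. They ranged from -3.25 to -2.48, from -1.25 to -1.02 and from -0.50 to -0.31 with 1 array left out. With 1 array left out, 44 to 815 genes rose and 79 to 789 fell over all genes, and 0 to 9 and 0 to 5 in the pathway lists, where the most calls came without DNMTs-Tg replicate 6. Array weights, whose estimation stopped before it converged, gave 2328 rises and 2494 falls over all genes and 17 and 14 in the lists; the cause was not tested. The mean of kept probe sets left 1 rise in the lists, since the probe sets of Akt1 differ. A fit with the label number as a replicate block, which only numbers 1 and 6 allow, left 1 rise and 0 falls over all genes and 0 and 0 in the lists, with Angpt1 at -2.61. It rests on 4 arrays. The deviations of arrays with the same number correlated at -0.054 and -0.080, so no shared deviation was seen, but these correlations cannot exclude a pairing. The endothelial marker mean stayed between 0.03 and 0.19 under the alternatives run for it. No detection calls were used here, so dim signals such as those of the second Angpt1 and Angpt2 probe sets were not shown to lie above background.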

Other observations

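Some genes of the pathway lists varied widely among hearts of a genotype. Ang, which encodes the secreted ribonuclease angiogenin, had log2 signals of 8.02, 7.65 and 7.66 in DNMTs-Tg hearts, against 7.74, 4.97 and 7.62 in wild-type hearts, where replicate 4, the array of female type, was the low one. Its difference of 1.00 ± 0.69 (log2, SE) did not pass (limma, adjusted p = 0.393). Thbs1, the inhibitor thrombospondin 1, reached 8.47 in DNMTs-Tg replicate 1, with 6.83 and 5.82 in replicates 5 and 6, against 5.54, 6.05 and 5.70 in wild-type hearts. Rcan1, a calcineurin regulator induced by VEGF, had 12.29, 11.02 and 9.86 in DNMTs-Tg hearts, against 9.62, 10.09 and 9.96 in wild-type hearts. Aplnr, the apelin receptor gene, spread widely in DNMTs-Tg hearts, with 8.28, 9.52 and 10.73, against 10.16, 9.89 and 10.95 in wild-type hearts. Thbs1, Rcan1 and Aplnr did not pass either (adjusted p = 0.225, 0.222 and 0.409). These genes were picked after their values were seen.

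The endothelial markers did not move as a block. Cldn5, the tight junction gene of endothelium, had 7.35, 6.72 and 7.62 in DNMTs-Tg hearts, against 7.70, 8.20 and 8.57 in wild-type hearts (-0.93, adjusted p = 0.109), while Robo4 had 8.44, 8.55 and 8.79 in DNMTs-Tg hearts, against 8.02, 8.17 and 8.17 in wild-type hearts (0.47, adjusted p = 0.0780). Neither passed limma's threshold, and both were picked after their values were seen.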
